A study of Drosophila melanogaster with 2 samples.

Results

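The CPR-domain cuticle proteins are the largest family of structural proteins of the insect cuticle, and 41 of the 8224 genes measured on both arrays belonged to them by name. A gene was taken as a member when its symbol in the platform annotation began with Cpr and a digit, or with Ccp84A, Lcp, Edg, Pcp or Acp65A. The 41 genes comprised 35 Cpr genes, 4 Ccp84A genes, 1 Lcp gene and 1 Acp65A gene. The array annotation also listed Cpr64Aa, whose probe had no value on either array. A further 8 probes matched the rule but are assigned to 2 genes each, and they entered no gene value. The domain itself was taken from the names and was not checked against protein sequences.

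The study compared whole Drosophila melanogaster embryos with and without hemocytes, the blood cells of the fly. Wild type embryos are the ones labelled hemocyte plus, and mutants of serpent (srp) are the ones labelled hemocyte minus. The gene srp encodes a GATA factor on which blood cells and fat body depend, so the mutants lack more than hemocytes. Total RNA of both genotypes was hybridised together on 2 two-colour arrays, A and B, with the dyes exchanged. The embryos of array A were labelled as unwounded in both channels, while the labels of array B give no wounding state. The labels give neither the stage and number of the embryos nor the srp allele. They do not say that the arrays held separate RNA extracts, so the p-values measure only the spread between these arrays. That spread was taken largely from all genes together, and it may be technical.

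The cuticle is an apical extracellular matrix that epidermal cells, and the cells of the trachea, foregut and hindgut, secrete late in embryogenesis. It is built from chitin fibres and from proteins that bind them. CPR proteins carry the Rebers and Riddiford consensus, a stretch of sequence that binds chitin, and different members serve soft and hard cuticle, body regions and developmental stages. The genes lie in clusters along the chromosomes, and the number and letter in a Cpr symbol give the cytological position.

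All values are log2 ratios between the genotypes, centred on the median of each array, and the sign needs a choice. The labels do not name the dye in the numerator of the deposited ratios. With Cy3 as the numerator, 10 of 14 plasmatocyte markers and 2 of 4 crystal cell markers passed the test on the positive side. Of all genes, 5.27% passed there, and the marker lists were written with earlier results of these data known. The positive side is therefore called the hemocyte side, and its values are likely to mean more RNA in hemocyte plus embryos. The negative side is called the opposite side, and its values are likely to mean more RNA in srp mutants. If Cy5 was the numerator, every sign turns and every size and p stays. In RNA of whole embryos, a difference in the number of cells that express a gene and a difference in RNA per cell cannot be told apart. The targeted gene srp lay at 0.15 on array A and 0.36 on array B and did not pass limma (mean 0.26 ± 0.15, SD, n = 2 arrays, adjusted p = 0.221). Without the allele and the part of the gene that the probe covers, this value does not check the genotype.

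Many CPR genes lay on the opposite side, few lay on the hemocyte side, and the rest did not pass the test. Of the 41 genes, 19 (46.3%) passed limma on the opposite side at an adjusted p under 0.05, where 8.18% of all genes did. On the hemocyte side 3 genes (7.32%) passed, where 5.27% of all genes did, so that share was close to the background. The median log2 ratio of the 41 genes was -0.33, against 0.00 for all genes, and the quartiles of the family ran from -0.92 to 0.04. Single members ranged from -2.12 to 1.95. The 19 members on the opposite side had a median of -0.96, and the 3 on the hemocyte side lay at 0.98 or above. The 19 that did not pass had a median of -0.03. The test itself set these groups, so their medians cannot show whether the family shifted as a block. Both arrays gave one sign for 32 of the 41 genes (78.0%), against 68.6% of all genes. Of these 32, 26 were negative (63.4% of the family, against 34.4% of all genes) and 6 positive (14.6%, against 34.2%). No test of the list as a whole was made, since its members were chosen with earlier results of these data known.

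**Figure D1:**
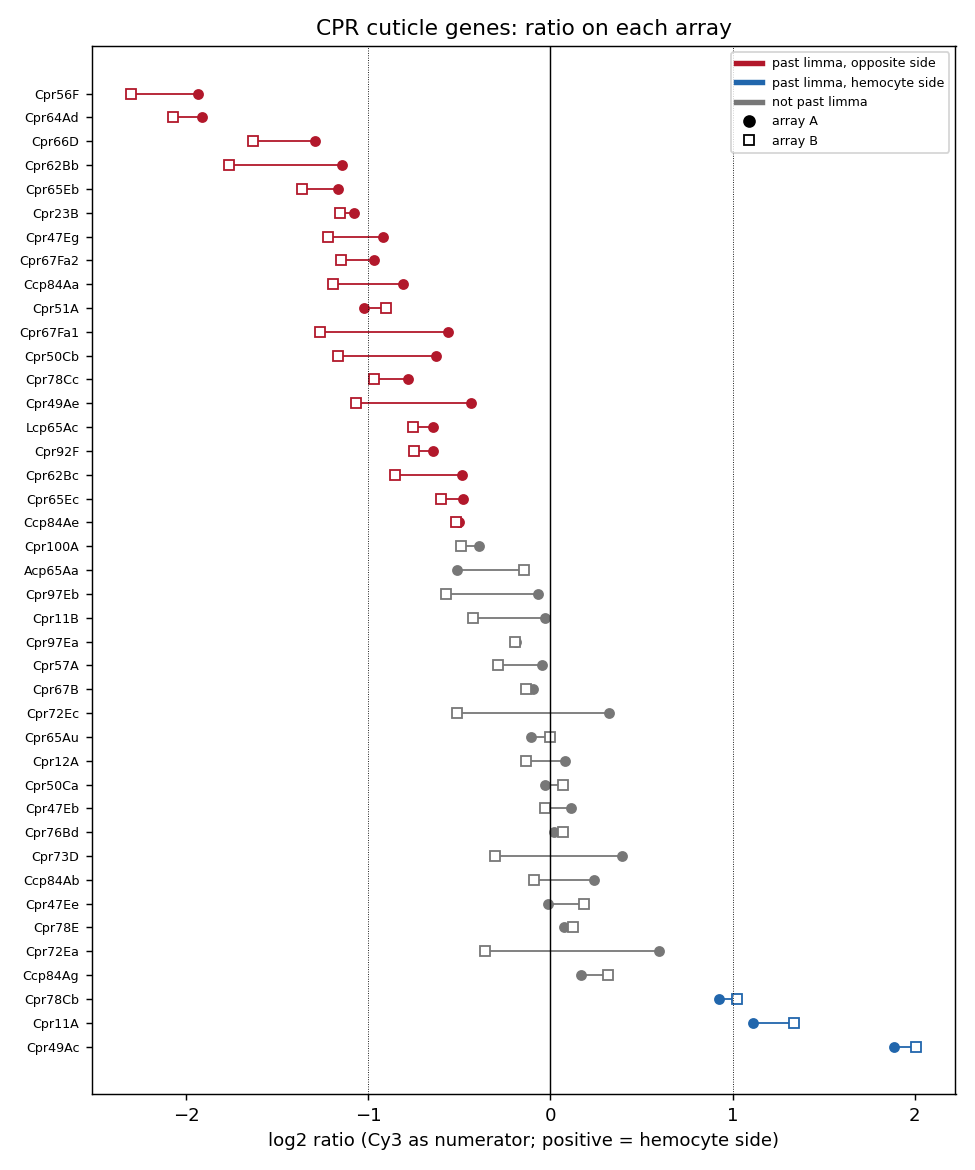
Log2 ratio of each of the 41 CPR genes on array A (filled circles) and array B (open squares), ordered by the mean, with dotted lines at 2-fold. The 19 genes in red passed limma on the opposite side, the 3 in blue on the hemocyte side, and the 19 in grey did not pass.

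Cpr56F had the lowest ratio of the family. It measured -1.93 on array A and -2.30 on array B, a mean of -2.12 ± 0.26 (SD, n = 2 arrays) or 4.34-fold (limma adjusted p = 0.000593). Both arrays placed it far from 0, and the gap between them was small beside the difference itself. Cpr64Ad followed at -1.91 and -2.07 on the respective arrays (-1.99 ± 0.11, 3.98-fold, limma adjusted p = 0.000565). Among all 8224 genes, Cpr56F ranked 21 and Cpr64Ad 27 from the bottom, and 9 CPR genes stood among the 200 lowest.

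Next in order were members at least 2-fold on both arrays with means near or above -1.46. Cpr66D measured -1.30 and -1.63 on arrays A and B (-1.46 ± 0.24, limma adjusted p = 0.0016). Cpr62Bb had the same mean but a wider spread, from -1.15 (array A) to -1.77 (array B) (-1.46 ± 0.44, adjusted p = 0.00374 by limma). Neither gene approached 0 on either array. Cpr65Eb measured -1.17 and -1.36 (-1.26 ± 0.14, limma adjusted p = 0.00179). Cpr23B, with -1.08 and -1.16, had one of the narrowest gaps between arrays (-1.12 ± 0.06, limma adjusted p = 0.00224). These 4 genes, with Cpr56F and Cpr64Ad, were the 6 CPR genes at least 2-fold on both arrays on the opposite side (14.6% of the family, against 1.82% of all genes). At a limit of 1.5-fold on both arrays there were 14 on the opposite side (34.1%, against 4.79% of all genes) and 3 on the hemocyte side (7.32%, against 2.78%).

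The remaining 13 genes on the opposite side had means from -1.07 to -0.51. Cpr47Eg measured -0.92 on array A and -1.22 on array B, a mean of -1.07 ± 0.21 (limma adjusted p = 0.00393). Cpr67Fa2 stood at -0.97 and -1.15 (-1.06 ± 0.13), and its neighbour Cpr67Fa1 at -0.56 and -1.27 (-0.92 ± 0.50). Whether the probe of either gene also binds RNA of the other was not tested, nor was this tested for any other CPR genes. Ccp84Aa, of the Ccp84A cuticle gene cluster, gave -0.81 and -1.19 (-1.001 ± 0.27, limma adjusted p = 0.00613). Cpr51A alone among the 19 lay farther from 0 on array A, at -1.02, than on array B, at -0.91 (-0.96 ± 0.08).

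Cpr50Cb measured -0.63 on array A and -1.17 on array B (-0.90 ± 0.38, limma adjusted p = 0.0153). Cpr78Cc measured -0.78 and -0.97 (-0.88 ± 0.13), and Cpr49Ae -0.44 and -1.07 (-0.75 ± 0.45, limma adjusted p = 0.0365). Cpr49Ae had the highest adjusted p of the 19, and it became 0.0506 when each gene was represented by its probe of largest change and 0.0508 without probes marked as re-amplified or duplicate. Cpr49Ae has 1 probe and kept its ratio in both settings. The larval cuticle protein gene Lcp65Ac measured -0.65 and -0.76 (-0.70 ± 0.08), and Cpr92F -0.64 and -0.75 (-0.70 ± 0.08). Cpr62Bc stood at -0.48 and -0.85 (-0.67 ± 0.26) and Cpr65Ec at -0.48 and -0.60 (-0.54 ± 0.09). Ccp84Ae closed the group with nearly equal values of -0.50 and -0.52 (-0.51 ± 0.01, limma adjusted p = 0.0309). Tested against a 1.2-fold difference in place of no difference, 11 of the 19 passed (26.8% of the family, against 4.09% of all genes).

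On the hemocyte side, 3 CPR genes passed. Cpr49Ac measured 1.89 on array A and 2.01 on array B, a mean of 1.95 ± 0.08 or 3.86-fold (limma adjusted p = 0.000565), and ranked 25 from the top of all genes. Cpr11A measured 1.11 and 1.34 (1.22 ± 0.16, 2.34-fold, limma adjusted p = 0.00211). Cpr78Cb measured 0.93 and 1.03 (0.98 ± 0.07, 1.97-fold, limma adjusted p = 0.00357). All 3 also passed against a 1.2-fold difference (7.32% of the family, against 2.42% of all genes), and Cpr49Ac and Cpr11A were at least 2-fold on both arrays (4.88% of the family, against 1.17% of all genes). The value of Cpr49Ac rests on 1 probe. Another probe, which the annotation assigns to Cpr49Ac together with a second gene, gave 0.12 on array A and 0.87 on array B. Which transcript that probe measured cannot be told, so no second probe checks the size of the Cpr49Ac ratio. The small gap between the arrays does not measure that uncertainty.

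**Figure D2:**
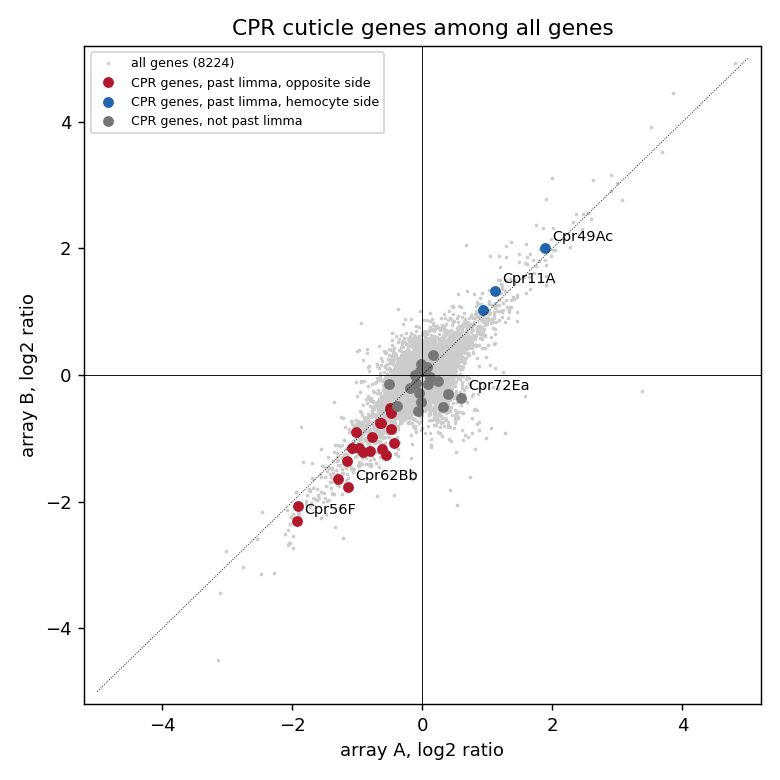
Log2 ratio on array A (horizontal) against array B (vertical) for all 8224 genes (grey points) and the 41 CPR genes (large points, coloured by the limma result), with the line of equal values dotted. Cpr49Ac, at 1.89 and 2.01, lies near the line of equal values, and most CPR genes on the opposite side lie below it.

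Most CPR genes on the opposite side lay farther from 0 on array B. Of the 19 genes on the opposite side, 18 (94.7%) lay farther from 0 on array B than on array A, where 68.4% of all genes called on that side did. The other cuticle gene families (Tweedle, Osiris, obstructor and Vajk) showed it as well, in 29 of 33 genes called on that side (87.9%). The median of array B minus array A was -0.20 in these 19 genes and -0.11 in all genes called on the opposite side. A ratio of 2-fold or more on the opposite side was reached by 7 CPR genes on array A (17.1%, against 2.09% of all genes) and by 12 on array B (29.3%, against 3.06%). The family median, -0.39 on array A, was -0.51 on array B. Sizes given for the opposite side are thus mostly larger on array B. Scaling the arrays to one spread over all probes left 20 genes past limma on that side. It hardly changed the mean ratios (Cpr62Bb from -1.457 to -1.451), so it cannot tell whether the calls depend on this difference between arrays.

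Of the 19 members that did not pass, Cpr100A came closest on the opposite side. It measured -0.39 and -0.49 (-0.44 ± 0.07, limma adjusted p = 0.0521), and it passed without centring (adjusted p = 0.0422) and with the arrays scaled to one spread (adjusted p = 0.0456). The adult cuticle protein gene Acp65Aa measured -0.52 on array A and -0.14 on array B, and Cpr97Eb -0.07 and -0.57, so each lay far from 0 on one array only. The other members with a mean below -0.1 were Cpr11B (-0.23 ± 0.28), Cpr97Ea (-0.19 ± 0.00), Cpr57A (-0.17 ± 0.17) and Cpr67B (-0.11 ± 0.03). The highest member that did not pass was Ccp84Ag, with 0.17 and 0.31 (0.24 ± 0.10, limma adjusted p = 0.232).

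For several of these 19 the arrays disagreed, so a mean near 0 is not a measurement of no difference. Cpr72Ea had the widest spread of the family, with 0.60 for array A and -0.36 for array B (0.12 ± 0.68). Cpr72Ec, beside it in the genome, measured 0.32 and -0.51 (-0.09 ± 0.59), and Cpr73D 0.40 and -0.30 (0.05 ± 0.49). A second set was close to 0 on both arrays. Cpr76Bd (0.02 and 0.07), Cpr50Ca (-0.03 and 0.07), Cpr78E (0.07 and 0.12) and Cpr47Eb (0.11 and -0.03) belong here, with Cpr12A (0.08 and -0.13) and Cpr65Au (-0.11 and 0.00). Ccp84Ab lay at 0.24 and -0.09, and Cpr47Ee, the only member with 2 probes, at -0.01 and 0.18. The probes of Cpr47Ee, one of them marked as re-amplified, differed by less than 1 in mean log2 ratio, and all other members had 1 probe.

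Neighbouring CPR genes had the same result in some places and different results in others. In the Release 6 gene table, 26 of the 41 members fell into 11 neighbourhoods, in which each gene starts within 50 kb of the next measured member. In 5 neighbourhoods all members had one result, and in 6 they differed. Every measured member passed on the opposite side in the pairs Cpr62Bb and Cpr62Bc, Cpr65Eb and Cpr65Ec, and Cpr67Fa1 and Cpr67Fa2. In the pairs Cpr72Ea and Cpr72Ec, and Cpr97Ea and Cpr97Eb, no member passed. Binding of a probe to RNA of a neighbouring member was not tested, so results shared by neighbours may not be independent.

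The widest contrasts were between genes on different sides. Cpr49Ac exceeded Cpr49Ae by 2.33 on array A and by 3.08 on array B. Cpr78Cb exceeded Cpr78Cc by 1.71 on array A and by 1.997 on array B. In both pairs one gene passed on each side, and both arrays gave the contrast the same sign. In the other mixed neighbourhoods some members passed on the opposite side and the others did not pass. Cpr50Ca exceeded Cpr50Cb by 0.60 and 1.24, and Cpr47Ee exceeded Cpr47Eg by 0.90 and 1.40, on arrays A and B. In the Ccp84A cluster, Ccp84Aa and Ccp84Ae passed while Ccp84Ab and Ccp84Ag did not, and Ccp84Ag exceeded Ccp84Aa by 0.98 and 1.51. Lcp65Ac passed, and its neighbours Acp65Aa and Cpr65Au did not. These differences between neighbours were not tested and are given as values.

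**Figure D3:**
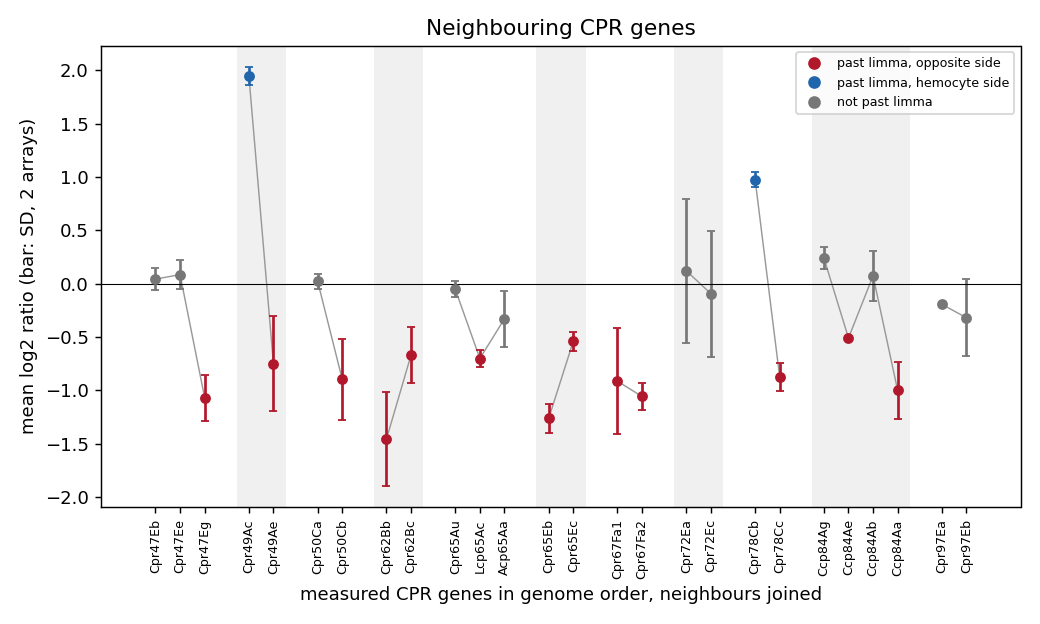
Mean log2 ratio of the 26 CPR genes that have a measured CPR neighbour, in genome order, with grey lines joining neighbours and bars giving the SD of the 2 arrays. Cpr49Ac and Cpr49Ae, and Cpr78Cb and Cpr78Cc, stand on different sides of 0.

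By chromosome arm, the genes past limma on the opposite side were spread over the autosomes. There were 10 of 19 on arm 3L, 5 of 10 on arm 2R, 3 of 8 on arm 3R and the single gene on arm 2L. The 3 genes on the X were Cpr11A, on the hemocyte side, and Cpr11B and Cpr12A, which did not pass. Over all arms together, 8.18% of all genes passed on the opposite side. The share of all genes on each single arm was not computed, so these small counts cannot compare the arms.

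The 8 probes assigned to 2 genes had means from -2.34 to 0.74. The lowest, shared by a pair of Lcp65A genes, measured -2.23 on array A and -2.45 on array B. Both values lay below those of Cpr56F, the lowest CPR gene with a probe of its own. A probe shared by Ccp84Ab and a gene outside the family measured -0.66 and -1.50, unlike the probe of Ccp84Ab alone. The highest, shared by Pcp and another gene, measured 0.51 and 0.96. Which of the 2 transcripts each probe measured cannot be told, and none of these values was assigned to a gene.

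Most genes of the other cuticle gene families examined lay on the opposite side. Of 39 measured genes of the Tweedle, Osiris, obstructor and Vajk families and Gasp, 33 passed limma there, where 8.18% of all genes did. The median was -1.19, and all 39 had a negative mean. On the hemocyte side 0 passed limma, and 0 at an unadjusted p under 0.05. The 4 Vajk genes all passed (median -1.44), as did 13 of 14 Osiris genes (median -0.85), 14 of 15 Tweedle genes (median -1.87) and 2 of 5 obstructor genes (median -0.37). The lowest ratios belonged to TwdlM (-2.70 ± 0.60), TwdlB (-2.38 ± 0.45), TwdlN (-2.37 ± 0.53) and TwdlL (-2.35 ± 0.43). Among those that passed, the ratios nearest 0 were Twdlalpha (-0.51 ± 0.09), Osi3 (-0.55 ± 0.11), Osi24 (-0.68 ± 0.24) and obst-E (-0.69 ± 0.42), and obst-B was the highest of the list (-0.28 ± 0.19). The difference between this list and the CPR genes was not tested.

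A few genes that make and modify chitin passed on each side. Of 21 measured, 5 lay past limma at the opposite side, where 8.18% of all genes did. At the hemocyte side 2 passed, where 5.27% of all genes did, and the median was -0.24. These small counts were not tested against the shares of all genes. On the opposite side stood Cda4, which encodes a chitin deacetylase-like protein (-1.35 ± 0.11), and Gfat1, whose enzyme opens the pathway to the chitin precursor (-1.18 ± 0.00). The chitinase family gene Cht7 (-0.97 ± 0.18), exp (-0.70 ± 0.02) and ChLD3 (-0.61 ± 0.15) also passed there. The genes exp and reb are related and act with chitin synthase in the trachea, yet reb lay on the hemocyte side (0.71 ± 0.02). Idgf5, which encodes a chitinase-like growth factor, had the highest ratio of the list (0.77 ± 0.05). The chitin synthase gene kkv lay at -0.42 ± 0.06 and did not pass (limma adjusted p = 0.0584).

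Tanning genes, whose products harden and darken cuticle, also had a few genes past limma on each side. Of 14 measured, 5 passed at the opposite side, against 2 at the hemocyte side (median -0.19). Among all genes 8.18% and 5.27% passed on these sides, and the small counts were not tested against these shares. The opposite side held yellow-d (-1.52 ± 0.30), yellow-h (-1.28 ± 0.10), the tyrosine hydroxylase gene ple (-1.09 ± 0.00), yellow-e (-0.98 ± 0.28) and yellow-b (-0.53 ± 0.06). On the hemocyte side stood Pu, which encodes GTP cyclohydrolase (0.77 ± 0.05), and yellow-e3 (0.76 ± 0.02).

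Among 12 measured regulators of epidermal differentiation and ecdysone timing, the nuclear receptor gene ftz-f1 alone passed on the opposite side. That count was close to the share of all genes (8.18%). It measured -1.84 on array A and -1.37 on array B (-1.61 ± 0.33, 3.05-fold, limma adjusted p = 0.00169). On the hemocyte side were shd, which encodes the enzyme that makes the active molting hormone (0.70 ± 0.43), vri (0.57 ± 0.03) and the nuclear receptor gene Hr39 (0.53 ± 0.12). Of all genes, 5.27% passed on that side. The list median was 0.20. The epidermal factor gene grh lay at 0.30 ± 0.27 and did not pass.

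In the list of apical matrix proteins with a ZP domain, 8 genes were measured (median 0.22). The ZP gene dyl passed on the opposite side (-1.02 ± 0.11), where 8.18% of all genes did. On the hemocyte side neo (0.67 ± 0.34), trn (0.54 ± 0.07) and pio (0.48 ± 0.17) passed, where 5.27% of all genes did. The gene trn encodes a leucine-rich repeat protein and not a ZP protein. Tested against a 1.2-fold difference, the hemocyte side held 0 genes of either of these last lists by limma. At an unadjusted p under 0.05 it held 3 regulators and 2 genes of the ZP list, which includes trn.

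**Figure D4:**
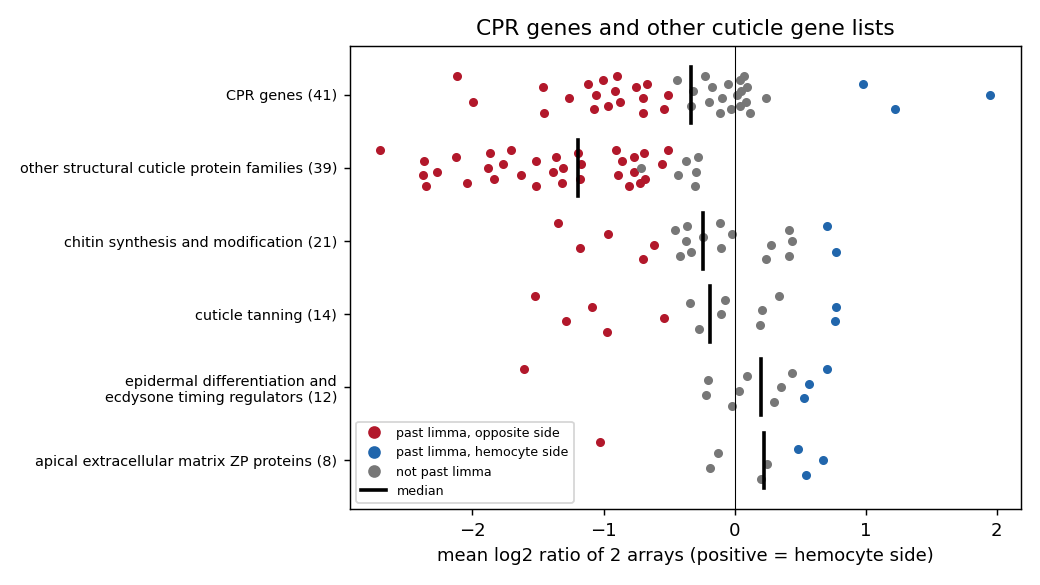
Mean log2 ratio of each gene (points, coloured by the limma result) in the CPR family and in 5 other lists of cuticle genes, with the median of each list as a black bar and the number of measured genes in brackets. The CPR median is -0.33. That of the list labelled other structural cuticle protein families, which includes the Osiris genes, is -1.19.

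Markers of some other cell types also passed in the same comparison. On the opposite side 8.18% of all genes passed, and on the hemocyte side 5.27%. Of 10 measured epidermis markers, 1 passed on the opposite side, a count close to that share. It was the cuticle gene TwdlD, already counted with the Tweedle genes, and the median of the list was -0.17 (range -2.27 to 0.40). All 5 measured muscle markers passed on the opposite side (median -0.80), as did 2 of 5 neuron markers (median -0.37). On the hemocyte side passed 4 of 5 fat body markers (median 0.91). Trachea markers divided, with 1 of 3 on each side, and so did midgut markers, with 1 of 4 at the opposite side, against 2 at the hemocyte side. The part of these cell types, or of embryo age, in the CPR ratios was not tested.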

How the data were processed

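RNA was extracted with Trizol and RNeasy and labelled through amino-allyl reverse transcription, as the labels' protocols state. The deposited table holds a score for each probe on each array, whose scale the labels do not state. All values are below 0, with medians of -0.989 (array A) and -1.021 (array B), look like linear dye ratios with a minus sign, and were treated as such. How the authors corrected background and normalized is not stated in the labels, no channel intensities were used, and precision is limited by the number of arrays. The size of each value was converted to log2, turned by the dyes in the labels and centred on the array median. Before turning, the arrays had r = -0.689 across probes. Of 12144 probes, 9917 have 1 gene symbol, 625 several and 1602 none; 9746 of the 9917 matched the RefSeq Release 6 gene table. Probes of a gene were averaged, and limma 3.58.1 (R 4.3.3) tested 8224 genes (intercept only, eBayes, 5.01 prior degrees of freedom, Benjamini-Hochberg over all genes, threshold 0.05). The procedure was tested on simulated data with independent arrays, which cannot show an error shared by both arrays. Errors are SDs of the 2 arrays, whereas limma took the spread of each gene largely from all genes. Ccp84Ae, with an SD of 0.01, thus had a standard error of 0.11 in the test. Members, lists and alternatives were chosen with earlier results of these data known, and Cy3 was taken as the numerator because of the hemocyte markers. Named were all members, and in each other list the genes past limma (at most 4 at each end) with the lowest and highest gene; kkv and grh were chosen after their values were seen. The planned division of members by type of chitin-binding consensus was not made, since protein sequences were not used here.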

Additional observations from a re-analysis of the deposited data

How the results depend on the processing

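Without centring, with scaled arrays, with the probe of largest change, without marked probes and with each probe on its own, 18 to 20 CPR genes passed limma at the opposite side. At the hemocyte side 3 passed, and no member changed sign in the gene fits. The shares of all genes past limma in these settings are not given, so the counts do not show the excess of the family over all genes there. Against a 1.2-fold difference 11 CPR genes passed on the opposite side, where 4.09% of all genes did, as did 3 chitin genes. On the hemocyte side 0 regulators and 0 genes of the ZP list passed by limma (3 and 2 at an unadjusted p under 0.05). A stricter null asks for a larger ratio. Without centring 4 chitin genes passed on the hemocyte side in place of 2; the cause was not tested. At 1.5-fold in place of 2-fold on each array, 14 CPR genes were counted on the opposite side. Leaving out one array at a time gave a family median between -0.51 and -0.39, 7 to 12 genes at least 2-fold at the opposite side, 2 to 3 such genes at the hemocyte side, with no test from 1 array. Each ratio already compares the genotypes within an array. No paired analysis was possible beyond that because the study has 1 group of arrays, so no replicate number is shared between groups. The division by chitin-binding consensus was not run. A common error of both arrays, or 1 shared pair of RNA extracts, would not show in these settings.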

Other observations

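For each of the 19 members on the opposite side, the nearest measured gene outside the family was taken from the Release 6 gene table, which gave 16 different genes, since neighbouring members share one. Counted once for each member, 3 of these neighbours passed limma at the opposite side (8.18% of all genes did) and 2 passed at the hemocyte side (5.27% of all genes did), with a median log2 ratio of 0.07. The 3 were CG13297 beside Lcp65Ac (-1.73), GV1 beside Cpr62Bb (-1.14) and CG30197 beside Cpr51A (-0.85). The gene nearest to both Cpr49Ac and Cpr49Ae was CG8501, at 2.34 (limma adjusted p = 0.00168), on the side of Cpr49Ac. ImpL2, which encodes an insulin-binding protein, lay at 1.05 beside Cpr64Ad at -1.99. These genes were named after their values were seen.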
